A study of Mus musculus with 11 samples.

Results

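The genes described here are 39 genes of sugar use in the retina: the enzymes of glycolysis, the glucose and lactate transporters, the pyruvate dehydrogenase complex with its kinases, the bifunctional regulators of phosphofructokinase, pyruvate carboxylase and the rod-derived cone viability factors with their partner basigin. They were taken by gene symbol from the 23284 genes of the deposited table, where all 39 had a row, Pkm2 under that older symbol. mRNA of whole retina from mice at postnatal day 21 was compared between 5 wild-type libraries and 6 Nrl knock-out libraries (Nrl-KO, called Nrl-/- in the design text). Nrl encodes the leucine zipper transcription factor that directs photoreceptor precursors to the rod fate, and the knock-out retina is known as a model in which rods are replaced by cone-like cells. The labels give the genotype, tissue and age and name no strain, promoter or further allele, and they do not state if each replicate is an animal of its own. The p-values therefore measure only the spread between these libraries, which may in part be technical.

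Glycolysis splits glucose into pyruvate, which is either reduced to lactate or oxidised in mitochondria after conversion by pyruvate dehydrogenase. Photoreceptors are known for aerobic glycolysis, in which most glucose leaves as lactate even with oxygen at hand, and monocarboxylate transporters carry that lactate between photoreceptors, Müller glia and the pigment epithelium. Rods are known to secrete a truncated thioredoxin-like product of Nxnl1, the rod-derived cone viability factor, which binds a retinal isoform of basigin on cones and raises their glucose uptake through the glucose transporter encoded by Slc2a1.

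In knock-out retina Nxnl1 fell to 21.0% of its wild-type level, Pfkfb2 to 28.0%, Slc16a3 to 49.4% and Nxnl2 to 50.3%. Most enzymes of the glycolytic chain fell by less, while hexokinase changed in both directions: Hk1 fell to 62.9% of wild type and Hk2 rose to 137%. The glucose transporters Slc2a1 and Slc2a3, basigin, and triosephosphate isomerase did not pass the test. Of the 38 members with enough reads to be tested, 24 were called, 19 lower and 5 higher (limma, Benjamini-Hochberg adjusted p under 0.05 over all tested genes), where 46.3% of all 14584 tested genes were called, 22.7% lower and 23.6% higher. The lower calls thus took 50.0% of the members and the higher calls 13.2%. The median log2 fold change (knock-out over wild-type) was -0.24 over the members and -0.01 over all tested genes. Levels are given as normalized counts, which are reads per gene divided by a size factor per library and are not scaled to gene length.

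The windows just upstream of the start sites of the 4 genes that fell most are shown first. They are 250 bases long, come from RefSeq on GRCm38.p6, and are written on the strand of the gene, with the start site following the last base. Capitals mark 2 short motifs searched on both strands: TAATCC, the core bound by the homeobox factors Crx and Otx2, and TGCTGA, which is contained in the element bound by Maf family factors such as Nrl. The Nxnl1 window lies at chr8:71566650-71566899 on the minus strand and holds TGCTGA, read on the other strand, 58 bases before the start. The Nxnl2 window lies at chr13:51170775-51171024 on the plus strand and holds TAATCC, also on the other strand, 152 bases before the start. The Pfkfb2 window, the farthest upstream of 3 start sites listed for this gene, lies at chr1:130716049-130716298 on the minus strand and holds TGCTGA 214 bases before the start. The Slc16a3 window lies at chr11:120948817-120949066 on the plus strand and holds neither motif.
Nxnl1: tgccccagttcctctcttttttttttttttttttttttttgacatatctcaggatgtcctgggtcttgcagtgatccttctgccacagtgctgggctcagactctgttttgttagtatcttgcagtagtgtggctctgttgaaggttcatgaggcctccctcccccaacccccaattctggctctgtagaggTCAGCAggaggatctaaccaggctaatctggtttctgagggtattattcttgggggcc
Nxnl2: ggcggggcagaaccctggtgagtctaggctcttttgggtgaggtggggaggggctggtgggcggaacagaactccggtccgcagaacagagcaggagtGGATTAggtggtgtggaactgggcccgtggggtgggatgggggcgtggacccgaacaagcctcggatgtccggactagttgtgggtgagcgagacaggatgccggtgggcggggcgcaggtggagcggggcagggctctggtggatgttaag
Pfkfb2: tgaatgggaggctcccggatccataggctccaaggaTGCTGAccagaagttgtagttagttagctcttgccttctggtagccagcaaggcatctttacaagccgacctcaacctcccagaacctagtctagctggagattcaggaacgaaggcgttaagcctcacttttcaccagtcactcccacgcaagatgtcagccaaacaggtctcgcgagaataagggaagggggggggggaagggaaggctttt
Slc16a3: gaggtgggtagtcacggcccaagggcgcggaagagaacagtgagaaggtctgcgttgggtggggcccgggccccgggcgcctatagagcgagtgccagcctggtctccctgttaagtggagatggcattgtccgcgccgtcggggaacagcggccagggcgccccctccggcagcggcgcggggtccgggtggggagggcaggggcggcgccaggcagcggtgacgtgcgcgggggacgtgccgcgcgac

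RefSeq windows were matched for 36 of the members, Pkm2 under its newer symbol Pkm, which gave 56 windows, some of them overlapping alternative starts of the same gene. Bsg, Slc2a3 and Slc16a7 had none. TAATCC stood in 6 of the 56 member windows (10.7%), those of Aldoc, Ldha, Nxnl2, Pfkfb4, Pfkm and Pfkp, and in 6.25% of all 32851 windows in the table. TGCTGA stood in 8 member windows (14.3%), belonging to Gpi1, Hk1, Nxnl1, Pdk1, Pdk3, Pfkfb2 and Pgam2, and in 16.1% of all windows. The E-box CACGTG stood in 7 member windows (12.5% against 6.02% of all windows) and ACGTG, the core of the hypoxia response element, in 20 (35.7% against 16.6%), each match of the first being also a match of the second. The windows were not matched for base composition, and a match in them is a description of letters, not of binding.

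The libraries were deep and matched their labels. They held between 14907613 and 20685840 reads in genes, and Nrl itself ranged from 34738 to 39490 normalized counts in wild-type and from 46.0 to 59.2 in knock-out libraries. Markers of the retinal cell types moved with genotype. All 7 rod markers were called lower, their summed level being 545687 to 629306 in wild type and 55566 to 75528 in the knock-out, and all 9 cone markers were called higher (27644 to 31869 and 238824 to 293122). All 10 microglia markers were higher (961 to 1291 and 3654 to 5412), as were 7 of 11 Müller glia markers with 1 lower (113169 to 121874 and 126464 to 144584). In whole tissue, fewer cells of a type and less RNA per cell cannot be told apart, and the part of these cell-type markers in the member values below was not tested. On the second principal component (7.34% of the variance) wild-type replicate 1 and knock-out replicate 2 stood apart, and changes of call without them are given beside the member. The scaling also matters: with libraries scaled to their total count the median of all genes moved from -0.01 to 0.13 on the log2 scale and that of the members from -0.24 to -0.11, and 12 members were called higher and 16 lower, against 40.2% and 11.7% of all genes.

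**Figure D1:**
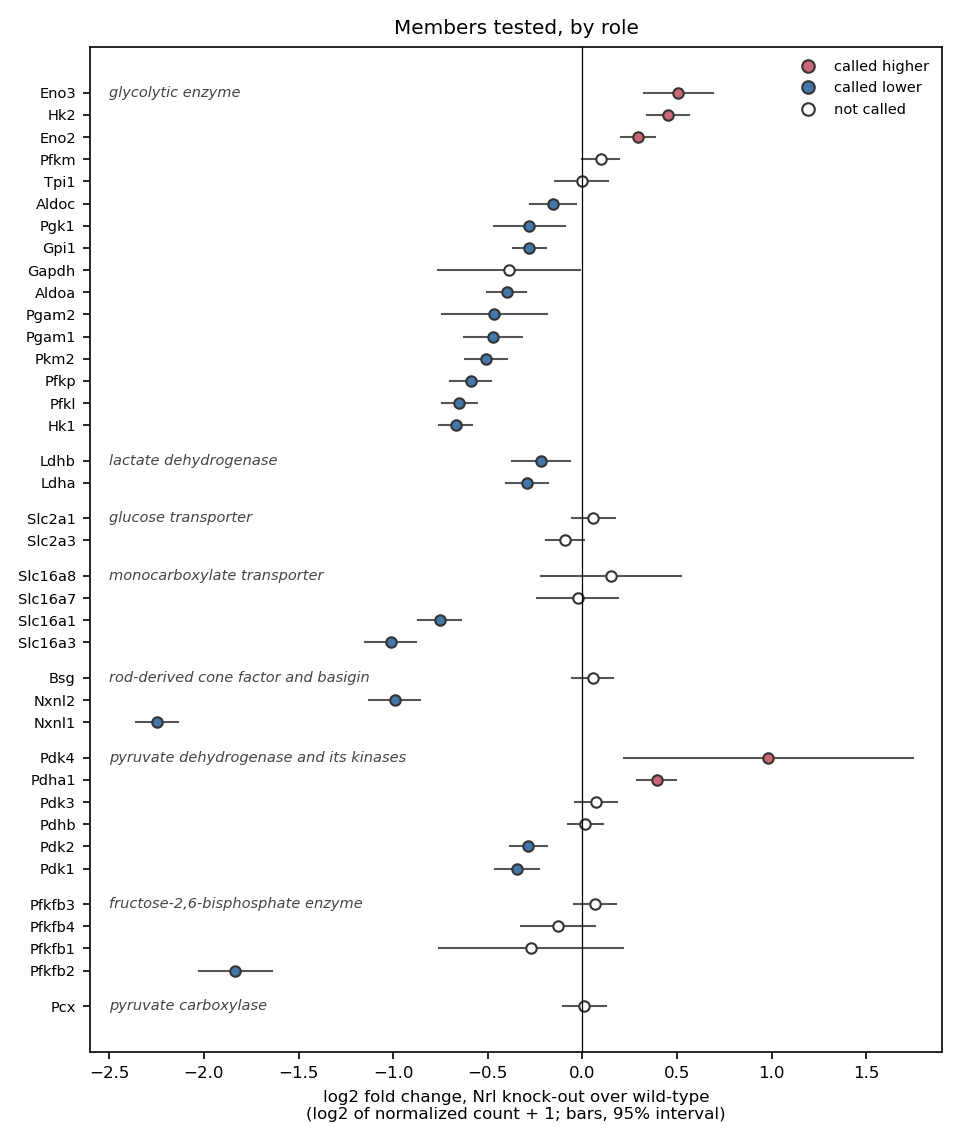
The 38 tested members by role, with the log2 fold change of knock-out over wild-type on the x axis and 95% intervals as bars; red points were called higher, blue points lower and open points were not called. Nxnl1 at -2.25 and Pfkfb2 at -1.83 lie farthest to the left, and 3 glycolytic enzymes lie to the right of 0 with a call. With libraries scaled to their total the points lie farther to the right, the calls of Aldoc, Pgk1 and Ldhb end, and 7 open points become higher calls.

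Both rod-derived cone factor genes fell without overlap of the groups. Nxnl1 stood at 7952, 7586, 6866, 6416 and 6961 normalized counts in wild-type replicates 1 to 5, and in the knock-out libraries at 1410 in the lowest, 1498 at the median and 1585 in the highest. The highest knock-out library thus lay far below the lowest wild-type library. Nxnl1 fell by 2.25 on the log2 scale (SE 0.05, limma adjusted p = 3.61e-17), the largest change among the members. Counts per gene do not separate its secreted form from the long form, a thioredoxin-like protein that stays in the cell. Nxnl2, which encodes a second, related factor, stood at 1559, 1622, 1340, 1488 and 1476 in wild type and at 639, 760 and 833 (lowest, median and highest) in the knock-out. Nxnl2 fell by 0.99 (SE 0.06, adjusted p = 1.82e-10). The printed windows of this pair differ in the motif they hold, TGCTGA for Nxnl1 and TAATCC for Nxnl2, and a link of either motif to the falls was not tested.

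Because Nxnl1 fell more than Nxnl2, the balance between them moved. The log2 ratio of Nxnl2 to Nxnl1, taken within each library from counts scaled to 1e+06 reads (CPM) plus 1, was -2.24 ± 0.10 (SD, n = 5) in wild type and -0.98 ± 0.11 (SD, n = 6) in knock-out retina, a difference of 1.26 (exact two-sided permutation p = 0.00216, the smallest that 5 against 6 libraries allow, and 0.00325 adjusted over 9 pairs of members). Per exon length, in RPKM (reads per kilobase of exon and per 1e+06 reads of the library, with exon lengths from GENCODE M21), Nxnl1 went from 138 ± 9.9 to 32 ± 1.3 and Nxnl2 from 67.7 ± 4.2 to 37.5 ± 3.1. Nxnl1 was thus the more abundant of the pair in every wild-type library (126 to 151 against 61.5 to 73.0 RPKM). In the knock-out its range (30.4 to 33.5) overlapped that of Nxnl2 (32.2 to 41.4). Within every knock-out library, however, Nxnl2 had the higher RPKM of the pair. RPKM is scaled to the library total, so its changes between the genotypes lie higher than those of normalized counts.

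Basigin, which is both the receptor of the factor and the chaperone that brings lactate transporters to the membrane, was at 13236, 12348, 11545, 11585 and 11397 normalized counts in wild type and at 11105, 12556 and 13553 in the knock-out. The groups overlapped and Bsg was not called (0.05, interval -0.06 to 0.16, adjusted p = 0.429). With libraries scaled to their total it was called higher, at 0.19. The table gives 1 value for the gene, so the retinal isoform that binds the factor is not separated from the ubiquitous form.

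**Figure D2:**
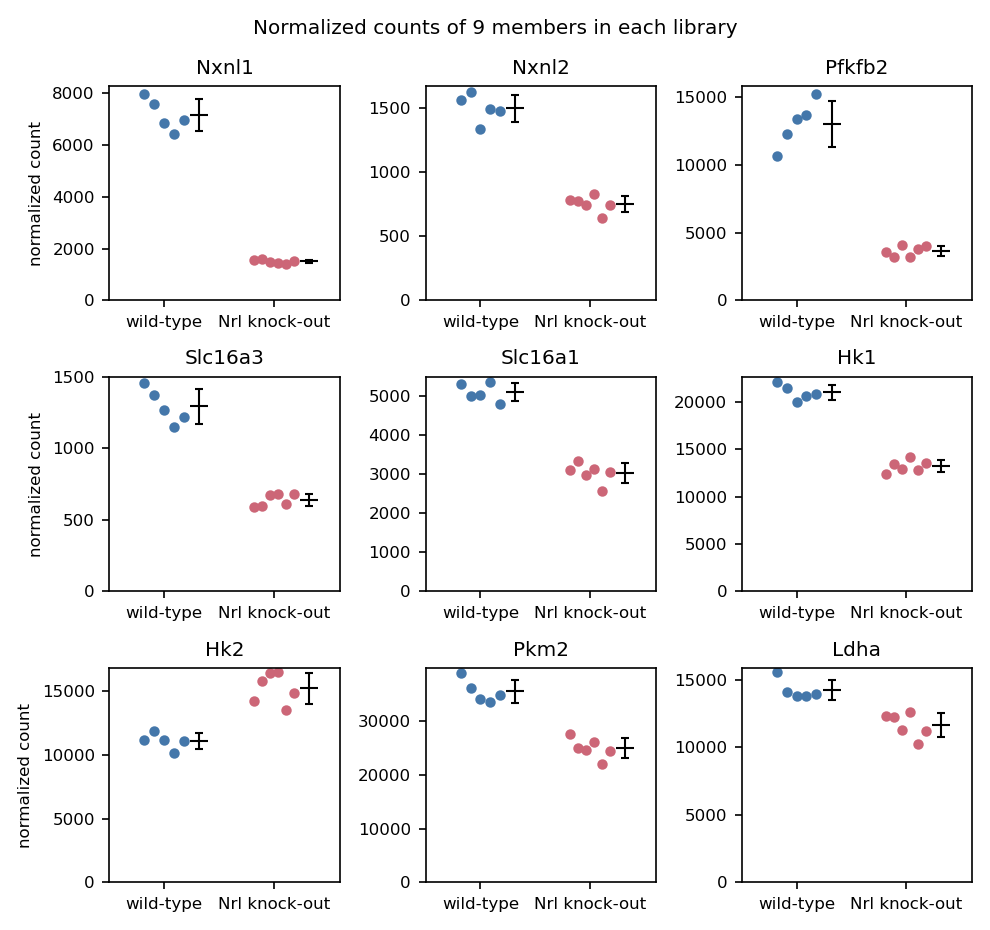
Normalized counts (y axis, linear from 0) of 9 members in each wild-type (blue) and knock-out (red) library, with the mean and SD beside the points. For all 9 genes the groups do not overlap, with Hk2 higher and the other 8 lower in the knock-out.

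The 4 PFKFB genes encode bifunctional enzymes that make and break the sugar bisphosphate that activates phosphofructokinase. Pfkfb2, known as the heart form, stood at 10646, 12283, 13423, 13673 and 15237 normalized counts in wild type and at 3210, 3708 and 4064 (lowest, median and highest) in the knock-out. The groups did not overlap, although the wild-type libraries spread more widely (coefficient of variation 13.1%) than for Nxnl1 (8.52%). Pfkfb2 fell by 1.83 (SE 0.09, limma adjusted p = 6.57e-10). The other 3 were not called. Pfkfb3, the inducible form, was at 1095 ± 38 and 1150 ± 87 (SD, n = 5 and 6), and was called higher under library total scaling (0.20, adjusted p = 0.00412). Pfkfb4, known as the testis form, was at 266 ± 39 and 242 ± 17, and it was called lower without wild-type replicate 1 (-0.22, adjusted p = 0.0235) and without the pair of libraries that stood apart (-0.20, adjusted p = 0.0448). Pfkfb1, the liver form, had 24.1 ± 6.6 and 19.9 ± 5.2.

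Pfkfb2 held most of the family's reads in both genotypes. In RPKM it stood at 137 ± 19 in wild type and 42.2 ± 4.5 in knock-out retina, where Pfkfb3 stood at 10.5 ± 0.5 and 12.1 ± 0.9. The log2 ratio of Pfkfb3 to Pfkfb2 went from -3.54 ± 0.18 to -1.65 ± 0.23 (exact permutation p = 0.00216, adjusted 0.00325), the largest difference (1.89) among the 9 ratios. The family's share of all reads in genes was 0.0764% ± 0.00997 in wild type and 0.0294% ± 0.0021 in knock-out retina. The other 2 start sites listed for Pfkfb2 lie downstream of the printed window's, and their windows hold TGCTGA and CACGTG respectively. Counts per gene do not show which start site is used.

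Lactate leaves and enters cells through monocarboxylate transporters. Slc16a3, which encodes MCT4, a low-affinity exporter of glycolytic cells, stood at 1457, 1371, 1272, 1150 and 1223 normalized counts in wild type and at 590, 643 and 682 in the knock-out. It fell by 1.01 (SE 0.06, limma adjusted p = 1.5e-10) without overlap of the groups. Slc16a1, which encodes the widespread transporter MCT1, stood at 5318, 5019, 5029, 5361 and 4816 in wild type and at 2587, 3080 and 3340 in the knock-out, again without overlap. It fell by 0.75 (SE 0.05, adjusted p = 9.32e-10). Both MCT1 and MCT4 depend on basigin, whose own mRNA was not called.

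The other transporters of the family were not called. Slc16a7, encoding the high-affinity neuronal form MCT2, was at 126 ± 8 and 124 ± 16 normalized counts. Slc16a8, encoding MCT3 of the retinal pigment epithelium, was at 40.8 ± 9.6 and 44.7 ± 6.5 (0.15, interval -0.22 to 0.52). Of 12 pigment epithelium markers 3 were called higher and 1 lower, and their summed level was 6555 to 9335 in wild type and 9763 to 11982 in the knock-out. The higher calls were Pmel (1.74), Dct (0.99) and Trpm1 (0.40), which ON bipolar cells also express and which makes up most of the sum, and the lower call was Rrh (-0.30). Rpe65, at 56.8 ± 12.2 and 48.0 ± 14.1, was among the 8 not called. Their part in the value of Slc16a8 was not tested. Within libraries the log2 ratio of Slc16a7 to Slc16a1 rose by 0.71, from -5.15 ± 0.07 to -4.44 ± 0.27 (exact permutation p = 0.00216, adjusted 0.00325). Slc16a7 was at 0.63 ± 0.08 RPKM in the knock-out, against 39.8 ± 3.0 for Slc16a1 and 8.35 ± 0.56 for Slc16a3.

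Glucose enters through GLUT1, encoded by Slc2a1, and GLUT3, the neuronal form encoded by Slc2a3. Slc2a1 was at 4515, 4444, 4242, 4599 and 4273 normalized counts in wild type and at 4156, 4562 and 5240 in the knock-out. The groups overlapped, and it was not called (0.06, interval -0.05 to 0.17, limma adjusted p = 0.396), although it was called higher with libraries scaled to their total (0.19). Slc2a3 was at 2476 ± 107 and 2326 ± 150 (-0.09, adjusted p = 0.126) and was called lower without knock-out replicate 4 (-0.12, adjusted p = 0.0347). Their log2 ratio, Slc2a3 to Slc2a1, was -0.83 ± 0.08 in wild type and -0.98 ± 0.06 in knock-out retina (exact permutation p = 0.0108, adjusted 0.0139). The libraries of the genotypes overlapped for this ratio, and without the pair of libraries that stood apart its adjusted p was 0.051. Slc2a1 is also high in vessel walls, and of 12 endothelial markers 2 were called higher and 1 lower, with summed levels of 7008 to 8101 and 7275 to 8565.

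Hexokinase commits glucose to the cell by phosphorylating it. Hk1, the general form of neurons, stood at 22144, 21472, 19980, 20599 and 20802 normalized counts in wild type and at 12356, 13154 and 14142 in the knock-out. Hk2, the form known from photoreceptor aerobic glycolysis, stood at 11196, 11891, 11143, 10167 and 11092 in wild type and at 13528, 15320 and 16496 in the knock-out. For neither gene did the groups overlap: every knock-out library was lower for Hk1 and higher for Hk2. Hk1 fell by 0.67 (SE 0.04, limma adjusted p = 1.09e-10) and Hk2 rose by 0.45 (SE 0.05, adjusted p = 1.14e-06). Within libraries the log2 ratio of Hk2 to Hk1 went from -0.92 ± 0.08 to 0.20 ± 0.09 (exact permutation p = 0.00216, adjusted 0.00325). In RPKM, Hk1 was the more abundant in wild type (229 ± 6 against 104 ± 5), whereas in the knock-out the pair stood level at 158 ± 7 and 157 ± 12.

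Phosphofructokinase, the main control point of the chain, has 3 subunit genes. Pfkl, the liver form, was at 9301 ± 527 in wild type and 5920.5 ± 260 normalized counts in the knock-out and fell by 0.65 (SE 0.04, limma adjusted p = 4.37e-10). Pfkp, the platelet form, was at 8407 ± 522 and 5583 ± 389 and fell by 0.59 (SE 0.05, adjusted p = 1.74e-08). For both genes the groups did not overlap. Pfkm, the muscle form, was at 4522 ± 254 and 4834 ± 263 and was not called (0.10, adjusted p = 0.101). It was called higher with libraries scaled to their total (0.23), also without the 10 most abundant genes in that total (0.13). The same held when wild-type replicate 1 (0.13), knock-out replicate 5 (0.12) or the pair of libraries that stood apart (0.12) was left out. The log2 ratio of Pfkm to Pfkl rose from -1.04 ± 0.06 to -0.29 ± 0.06 (exact permutation p = 0.00216, adjusted 0.00325), while that of Pfkp to Pfkl differed by 0.06 (p = 0.457). In RPKM the order Pfkl, Pfkp and Pfkm of wild type (132 ± 6, 103 ± 7 and 79.6 ± 3.4) became Pfkm, Pfkl and Pfkp in the knock-out (93.6 ± 4.8, 92.2 ± 3.8 and 75.5 ± 5.6). The first 2 of the knock-out order lay within their spread.

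**Figure D3:**
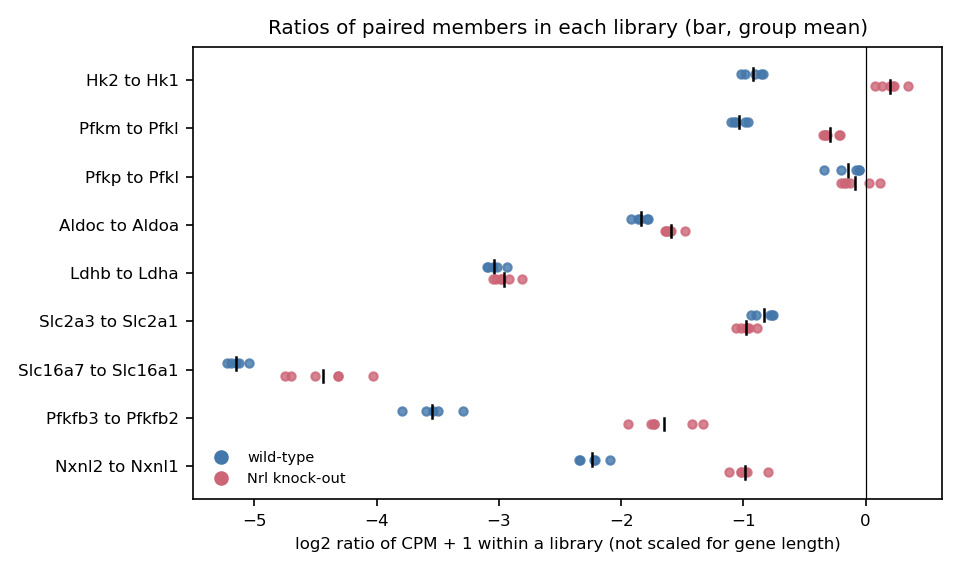
Log2 ratio of CPM plus 1 (x axis, not scaled for gene length) for 9 pairs of members, with a point per wild-type (blue) or knock-out (red) library and a bar at each group mean. The groups do not overlap for 6 pairs, with the largest difference for Pfkfb3 to Pfkfb2 (1.89), and they overlap for Pfkp to Pfkl, Ldhb to Ldha and Slc2a3 to Slc2a1.

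Upstream of the triose stage, Gpi1, encoding glucose phosphate isomerase, was at 9808 ± 431 and 8071 ± 357 normalized counts and fell by 0.28 (SE 0.04, limma adjusted p = 1.66e-05). Aldoa, the widespread aldolase gene, had the highest RPKM of the members as counted in both genotypes (804 ± 32 and 670 ± 43). That rank is uncertain, since Gapdh and Eno1 can lose reads to processed copies. Aldoa stood at 41973, 39764, 36657, 37276 and 39531 in wild type and at 26572, 29405 and 31981 in the knock-out. It fell by 0.40 (SE 0.05, adjusted p = 1.72e-06), and its groups did not overlap. Aldoc, the brain aldolase gene, was at 10911 ± 741 and 9799 ± 819 and was called at -0.16 (adjusted p = 0.0327) with overlapping groups. That call was lost under library total scaling (-0.02), also without the 10 most abundant genes in the total (-0.13, limma adjusted p = 0.0711). Leaving out wild-type replicate 1 (-0.12) or 2 (-0.16), or knock-out replicate 3 (-0.15), 5 (-0.12) or 6 (-0.14), ended it too, as did leaving out the pair of libraries that stood apart (-0.14). The ratio of Aldoc to Aldoa rose on the log2 scale by 0.24, from -1.84 ± 0.06 to -1.60 ± 0.06 (exact permutation p = 0.00216, adjusted 0.00325). Tpi1, encoding triosephosphate isomerase, was at 9854 ± 999 and 9812 ± 817 and was not called (interval of the log2 fold change -0.14 to 0.14).

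Several enzymes of the lower chain have many near-identical processed copies in the genome, to which their reads can be lost, and their low levels are uncertain for that reason. Gapdh had 254 reads over the wild-type and 237 over the knock-out libraries and was at 51.8 ± 17.9 and 38.0 ± 4.1 normalized counts. It was not called (adjusted p = 0.0859), but was called lower without wild-type replicate 1 (-0.48, adjusted p = 0.0375) and without the pair of libraries that stood apart (-0.48, adjusted p = 0.0465). Eno1 had 14 and 8 reads in all and was the only member left untested. Pgk1, encoding phosphoglycerate kinase, was called lower (436 ± 29 and 362 ± 51, -0.28, adjusted p = 0.0148), a call lost under library total scaling (-0.14) and without the pair of libraries that stood apart (-0.24). Pgam1, the brain form of phosphoglycerate mutase, fell from 582 ± 63 to 418 ± 31 (-0.47, SE 0.07, adjusted p = 2.68e-05) and the muscle form Pgam2 from 63.5 ± 9.5 to 45.5 ± 4.7 (-0.47, SE 0.13, adjusted p = 0.00741).

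Eno2 and Eno3, both enolase genes, were called higher. Eno2, the neuronal enolase gene, stood at 15458, 14005, 13712, 13622 and 14001 normalized counts in wild type and at 16303, 17371 and 18545 in the knock-out, every knock-out library being above every wild-type library. It rose by 0.29 (SE 0.04, limma adjusted p = 1.78e-05). Eno3, the muscle enolase gene, stood at 277, 305, 290, 311 and 318 in wild type and at 360, 442 and 495 in the knock-out, also without overlap. It rose by 0.51 (SE 0.09, adjusted p = 8.5e-05). None of the 7 tested striated muscle markers was called by limma, edgeR or DESeq2 (1 had an unadjusted p under 0.05 in limma), and the summed level of all 12 was 539 to 616 in wild type and 455 to 544 in the knock-out. In RPKM, which is scaled to the library total, Eno2 went from 268 ± 11 to 360 ± 17 and Eno3 from 10.1 ± 0.6 to 15.9 ± 2.2. In normalized counts the knock-out means were 123% of wild type for Eno2 and 143% for Eno3.

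Pyruvate kinase closes the chain. Pkm2, which stands for all transcripts of the gene and does not separate its muscle isoforms, stood at 39007, 36165, 34092, 33619 and 34902 normalized counts in wild type and at 22039, 24817 and 27633 in the knock-out. It fell by 0.51 (SE 0.05, limma adjusted p = 1.78e-07) with no overlap. Of the 16 tested glycolytic enzymes, 10 were called lower (62.5%), 3 higher (18.75%) and 3 were not called, with a median log2 fold change of -0.33. Of all tested genes 22.7% were called lower and 23.6% higher. With libraries scaled to their total 8 of the enzymes were lower and 4 higher, against 11.7% and 40.2% of all genes.

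Lactate dehydrogenase turns pyruvate to lactate and back. Ldha, whose product favours lactate, stood at 15593, 14055, 13812, 13822 and 13925 normalized counts in wild type and at 10239, 11761 and 12600 in the knock-out, with no overlap. It fell by 0.29 (SE 0.05, limma adjusted p = 0.000141). Ldhb, whose product favours pyruvate, stood at 2025, 1718, 1600, 1605 and 1670 and at 1339, 1445 and 1736, so that the groups overlapped. It was called at -0.22 (adjusted p = 0.0203), and the call was lost under library total scaling (-0.08) and without the pair of libraries that stood apart (-0.16, adjusted p = 0.0633). As a log2 ratio, Ldhb to Ldha was -3.04 ± 0.07 in wild type and -2.96 ± 0.08 in knock-out retina, a difference of 0.08 that did not pass (exact permutation p = 0.132, adjusted 0.149). Ldha was the more abundant per length in both genotypes, at 397 ± 16 and 357 ± 26 RPKM against 69.8 ± 6.1 and 66.0 ± 6.9 for Ldhb.

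**Figure D4:**
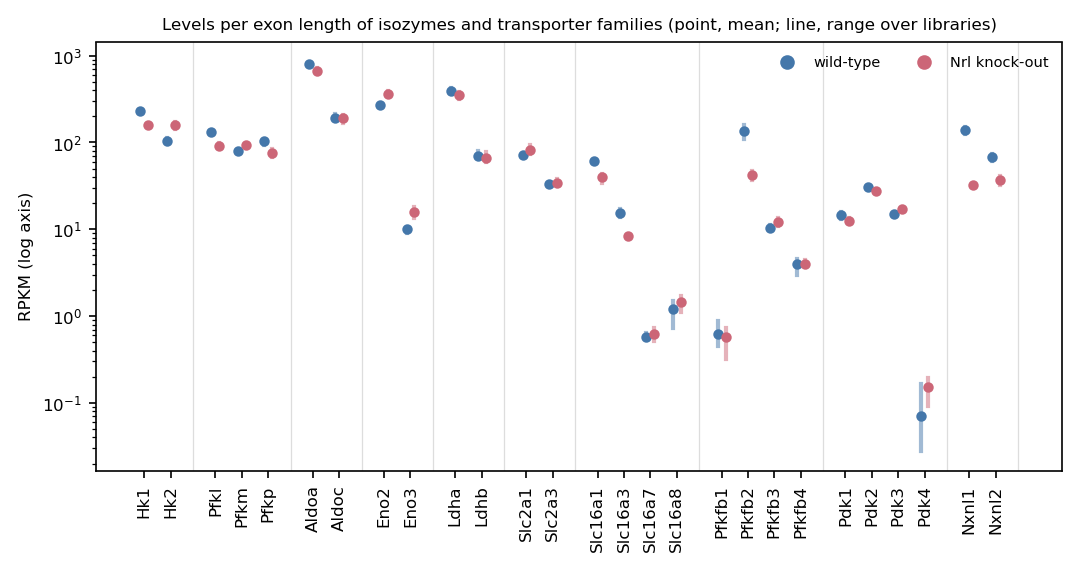
RPKM (log axis) of the isozymes and transporter family members, as group means with the range over the 5 wild-type (blue) and 6 knock-out (red) libraries. Hk1 and Hk2 stand apart in wild type (229 and 104) and level in the knock-out (158 and 157), and Pfkfb2 stands above the other 3 PFKFB genes in both genotypes.

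The pyruvate dehydrogenase complex sends pyruvate into mitochondria, and its kinases switch it off. Pdha1, encoding the subunit that the kinases phosphorylate, stood at 1981, 1750, 1690, 1714 and 1650 normalized counts in wild type and at 2201, 2295 and 2479 in the knock-out. The groups did not overlap and Pdha1 rose by 0.39 (SE 0.05, limma adjusted p = 2.03e-06). Its partner Pdhb was at 995 ± 39 and 1005 ± 28 (0.02, adjusted p = 0.794), and was called higher with libraries scaled to their total (0.15). Among the kinases, Pdk1 fell by 0.35 (1427 ± 112 to 1122 ± 59, SE 0.06, adjusted p = 3.92e-05) and Pdk2 by 0.29 (1288 ± 74 to 1055 ± 33, SE 0.05, adjusted p = 4.84e-05), both without overlap. Pdk3 was at 596 ± 36 and 625 ± 19 and was not called (0.07, adjusted p = 0.286), but was called higher under library total scaling (0.21, adjusted p = 0.00188).

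Pdk4, the kinase induced by fasting, was called higher on 23 wild-type and 56 knock-out reads over all libraries, at 2.40, 1.84, 10.7, 4.36 and 4.01 normalized counts in wild type and at 5.56, 10.4 and 11.7 in the knock-out. Wild-type replicate 3 lay among the knock-out libraries. The call (0.98, SE 0.36, limma adjusted p = 0.0335) ended in edgeR (adjusted p = 0.0685) and DESeq2 (0.0986), and when wild-type replicate 1, 2 or 5 or knock-out replicate 1, 2, 5 or 6 was left out. Without these in turn its log2 fold change was 0.78 to 0.99, and without the pair of libraries that stood apart it was 0.77 (adjusted p = 0.12). Pcx, encoding pyruvate carboxylase, which feeds pyruvate into the cycle as oxaloacetate, was at 694 ± 54 and 697 ± 15 and was not called (0.01, interval -0.10 to 0.12), but was called higher under library total scaling (0.14, adjusted p = 0.0235).

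Over all roles, the members took 1.30% ± 0.03 of wild-type and 1.14% ± 0.05 of knock-out reads in genes, with ranges of 1.27% to 1.35% and 1.06% to 1.2%. Left without the 10 most abundant genes in the total, the shares were 1.44% and 1.18%. Reads that Gapdh and Eno1 may have lost to processed copies are missing from all these shares. The groups did not overlap for 16 members called lower and 4 called higher, where 14.5% and 16.4% of all tested genes were so. At least 2-fold changes were limited to Nxnl1, Pfkfb2 and Slc16a3, all lower, where 2.60% of all genes were called lower by that much. The cut parts near-equal values: Slc16a3 was at -1.01 (interval -1.15 to -0.88) and Nxnl2 at -0.99 (interval -1.13 to -0.86). No member was called higher by at least 2-fold, where 5.17% of all genes were. Members are more abundant than most genes (median of 1824 against 454 normalized counts). Of the 25 members with a mean of at least 1000, 15 were called lower and 3 higher, where 29.6% and 26.6% of all such genes were. Within a genotype the members leaned together by library: wild-type replicate 1 was the highest of its group for 19 of 38 members (50.0% against 33.1% of all tested genes) and knock-out replicate 5 the lowest of its group for 20 (52.6% against 21.9%). In the authors' deposited table, at an adjusted p under 0.05, 19 members were lower and 4 higher, and 37 of the 39 had the same call as here, the exceptions being Pdk4 and the untested Eno1.

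Genes that neighbour these steps were counted from 10 further pathway lists. Of 130 tested genes 30 were called higher and 34 lower, or 49.2% in all, where 46.3% of all genes were called, with a median log2 fold change of -0.03. With libraries scaled to their total 55 were higher and 14 lower, where 40.2% and 11.7% of all genes were. Of 8 other pyruvate entry genes 2 were called lower. Pdp2, encoding a phosphatase that switches pyruvate dehydrogenase on, fell from 494 ± 25 to 247 ± 33 normalized counts, 50.0% of wild type. Pdhx was called at -0.14, a call lost under library total scaling, with or without the 10 most abundant genes in the total. The Pdhx call was also lost without wild-type replicate 1 or 2, and without the pair of libraries that stood apart. Of 17 TCA cycle genes 4 were higher and 3 lower, with Idh3a (0.55) and Idh2 (0.30), encoding isocitrate dehydrogenases, higher in knock-out. Sdha and Mdh2 were both called at -0.13. Neither was called under library total scaling, with or without the 10 most abundant genes in the total. The Sdha call also ended when wild-type replicate 1, 2 or 3 or knock-out replicate 3, 5 or 6 was left out. Mdh2 lost its call without those libraries, without knock-out replicate 1, without the pair that stood apart, with TMM scaling and with no filter on low values. Of 9 genes of the NADH shuttles 4 were higher and 2 lower: Slc25a13, an aspartate-glutamate carrier, went from 25.0 ± 5.5 to 65.1 ± 9.5 (1.36) and Gpd1 rose by 0.78, while Got2 fell by 0.35 and Slc25a12 by 0.21, the last call ending with libraries scaled to their total.

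Glycogen use held the largest rise among these lists. Pygm, the muscle glycogen phosphorylase gene, stood at 1868 to 2345 normalized counts in wild type and at 11407 to 12721 in the knock-out and rose by 2.54 (SE 0.05, limma adjusted p = 3.3e-18). Ppp1r3c, a glycogen-targeting phosphatase subunit, rose by 0.89, and the list of 14 had 4 genes higher and 3 lower. Of these Pgm1 (-0.28) lost its call in edgeR and DESeq2, under TMM scaling, and under library total scaling with or without the 10 most abundant genes. The Pgm1 call also ended with no filter on low values, with the replicate block, without the pair of libraries that stood apart and without most single libraries. Among 26 further isozymes and transporters 7 were higher and 7 lower. Slc16a6, another transporter of the monocarboxylate family, fell from 2769 ± 186 to 963 ± 90 (-1.53, SE 0.06), and Eno4 fell by 0.77. Slc2a4, encoding the insulin-regulated glucose transporter, went from 20.2 ± 7.3 to 50.0 ± 10.5 (1.30), and the hexokinase-like gene Hkdc1 rose by 0.92. Of 8 pentose phosphate genes 1 was higher and 3 lower, with H6pd at 1.03, and with Pgls (-0.23) and Tkt (-0.20) not called once libraries were scaled to their total. Neither of the 2 tested genes of gluconeogenesis was called by limma, edgeR or DESeq2 (0 at an unadjusted p under 0.05 in limma). Both were called higher with libraries scaled to their total, as were 40.2% of all genes.

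Of 26 regulators 12 were called lower and 3 higher, where 22.7% and 23.6% of all tested genes were. Ppargc1b, a coactivator of mitochondrial genes, fell from 1044 ± 33 to 262 ± 27 normalized counts, 25.1% of wild type, and Epas1, a hypoxia-inducible factor gene, from 4484 ± 233 to 2136 ± 131 (-1.07, SE 0.05). Egln3, an oxygen-sensing prolyl hydroxylase, rose by 0.88, and Mlxip was called at 0.38, a call that ended when any of 6 single libraries, or the pair that stood apart, was left out. With libraries scaled to their total 8 regulators were lower and 6 higher, against 11.7% and 40.2% of all genes. Of 10 phosphocreatine and adenylate kinase genes 4 were higher and 1 lower, led by Gatm (1.04) and the creatine transporter gene Slc6a8 (0.73), with Ak4 at -0.25. Of 10 redox partners of thioredoxin and glutathione, the systems to which the long product of Nxnl1 is related, 3 were higher and 1 lower, with Gsr at 0.32, Prdx2 at 0.31 and Txnrd1 at -0.19. Under library total scaling Ak4 and Txnrd1 were not called.

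**Figure D5:**
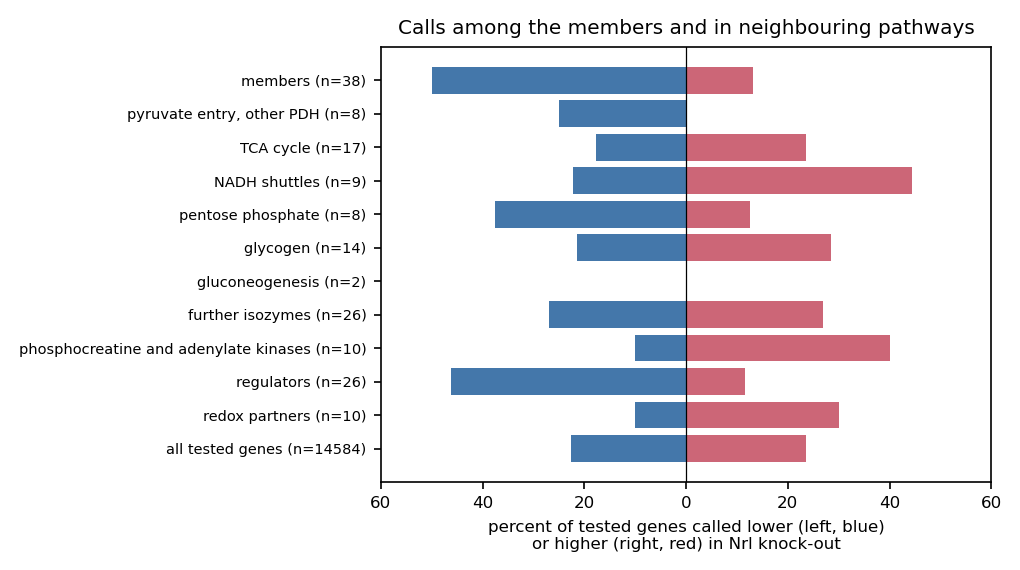
Percent of tested genes called lower (left, blue) or higher (right, red) in knock-out retina for the members, for 10 neighbouring pathway lists and for all 14584 tested genes. The members' bar reaches 50.0% to the left and 13.2% to the right, against 22.7% and 23.6% for all genes. With libraries scaled to their total, 55 of the 130 other pathway genes were higher and 14 lower. All genes moved too, to 40.2% higher and 11.7% lower.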

How the data were processed

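Retinal mRNA from mice at postnatal day 21 was measured in 5 wild-type and 6 Nrl knock-out libraries, grouped by the genotype in each title. Per the labels' protocols, TruSeq libraries gave stranded reads of 50 bases from a single end. PolyA RNA stands in the molecule label while the protocol speaks of removing ribosomal RNA, so how mRNA was selected is uncertain. Tools named in the submitters' processing notes are TopHat2 2.1.1, HTSeq 0.6.0 and DESeq, with the build mm9. Which annotation and strand setting the counting used is not given in the sources used here, so reads of overlapping, antisense and near-identical genes are uncertain.

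The authors deposited 1 table of 23284 genes whose library columns hold a signal, read counts divided by a size factor per library. The deposited log2 fold change and adjusted p-value of the authors were used in 1 comparison of calls, and their mean signal was carried beside them. In each library 100% of values were whole multiples of 1 step to within 1e-06 of a read, and the reads recovered this way totalled 14907613 to 20685840. A count of 0 allows up to 3 reads, or 2.61 to 3.59 normalized counts, which covers counting error only.

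edgeR had been planned for a table of raw counts, and since the table is normalized, limma gave the main result. limma 3.58.1 in R 4.3.3 (trend, robust moderation) was fitted to log2(normalized count + 1) with a single genotype term, for the 14584 genes with at least 10 normalized counts in at least 5 libraries. Tests are two-sided, adjusted p-values are Benjamini-Hochberg over all tested genes, and the pseudocount understates changes of low genes. edgeR 4.0.16 on the recovered reads called 6760 genes and DESeq2 1.42.0 called 6780, against 6752 in limma. Both were alternatives, with other scalings, filters, pseudocounts, thresholds, a replicate block and libraries left out. The limma and permutation steps were tested on simulated data, and edgeR was not. Over 10 simulated data sets limma recovered 56.3% of 1.25-fold and 95.4% of 2-fold changes. Between 2.99% and 9.09% of its calls in a data set were false. Far fewer genes were changed in those sets than were called in these data. Ratios of paired members were compared by an exact permutation test of the genotype labels.

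The members, lists, motifs and tests were chosen with earlier results of these data known. All members are named. From each other pathway list the called genes with the 2 largest rises and the 2 largest falls are named, except 1 that is not reported here. RPKM used exon unions of GENCODE M21, which need not match the authors' annotation. Of the marker lists, 4 of 5 erythrocyte genes were at 0 in all libraries, and the 1 tested erythrocyte and the 1 tested lens gene were not called (0 at an unadjusted p under 0.05 in limma, and 0 called in edgeR and DESeq2).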

Additional observations from a re-analysis of the deposited data

Results flagged for a closer look

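In 4 of the 78 groups of libraries examined, 39 members in each genotype, a single library stood far from the others. Chance marks about 1 in 20 such groups. Wild-type replicate 1 was the highest wild-type library for Eno2 (15458 normalized counts, the nearest being 14005), for Ldha (15593, the nearest 14055) and for Ldhb (2025, the nearest 1718). The calls of Eno2, Ldha and Ldhb held without that library. The summed level of the 7 lens markers was 310 in wild-type replicate 1 and 21.4 to 42.3 in the other wild-type libraries, and the part of this in the values above was not tested. For Pdk4, wild-type replicate 3 stood at 10.7 normalized counts, the nearest being 4.36, and its call held without that library.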

How the results depend on the processing

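Of the 24 called members, 20 kept their call under all 23 settings run for each. Aldoc, Pgk1, Ldhb and Pdk4 lost it under at least 1 setting, and 10 members without a call gained one. No called value changed sign. With libraries scaled to their total, 12 members were called higher and 16 lower. Over the other pathway lists 55 of 130 tested genes were then higher and 14 lower. Of all tested genes 40.2% were higher and 11.7% lower with that scaling. At a fold of at least 1.5, 1 member was higher and 8 lower. No share of all genes at that fold is given here to set beside these counts. The wild-type share of reads was 1.44% without the 10 most abundant genes. With both libraries that stood apart left out (wild-type replicate 1, knock-out replicate 2), the difference in the log2 ratio of Slc2a3 to Slc2a1 was -0.13 (adjusted p = 0.051, exact permutation).

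Leaving out each library in turn gave 4 to 5 members higher and 18 to 20 lower. The differences in log2 ratio were then 1.09 to 1.15 for Hk2 to Hk1, 0.73 to 0.76 for Pfkm to Pfkl, 0.01 to 0.08 for Pfkp to Pfkl, 0.22 to 0.26 for Aldoc to Aldoa, 0.05 to 0.10 for Ldhb to Ldha, -0.18 to -0.13 for Slc2a3 to Slc2a1, 0.63 to 0.78 for Slc16a7 to Slc16a1, 1.83 to 1.96 for Pfkfb3 to Pfkfb2 and 1.22 to 1.29 for Nxnl2 to Nxnl1.

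Libraries with the same replicate number showed no clear common deviation (correlations of -0.13 to 0.22). The highest correlation, 0.41, was between wild-type replicate 1 and knock-out replicate 2. A weak pairing by number could go unseen beside such deviations, so these values do not settle if the numbers pair the samples. With the replicate block, limma called 4 members higher and 19 lower, Pdk4 being lost. In the paired ratio test with the replicate block, 5 pairs cannot give an exact p below 0.0625, so it says nothing about stability. Its differences were 1.13 for Hk2 to Hk1, 0.75 for Pfkm to Pfkl, 0.25 for Aldoc to Aldoa, -0.13 for Slc2a3 to Slc2a1, 0.69 for Slc16a7 to Slc16a1, 1.95 for Pfkfb3 to Pfkfb2 and 1.26 for Nxnl2 to Nxnl1, each with an adjusted p of 0.0804. Few reads limit what can be said of Pdk4, Eno1, Gapdh and Pfkfb1, and Gapdh and Eno1 may have lost reads to processed copies. The causes of these changes were not tested.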
